A study of Mus musculus with 98 samples.

Results

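The transcripts described here are 9 mouse genes whose expression follows temperature: the cold-inducible RNA-binding protein genes Cirbp and Rbm3, and 7 heat shock genes, Hsph1, Hsp90aa1, Dnajb1, Hspa8, Hspa1a, Hspa1b and Hspb1. They were chosen by symbol, with earlier results of these data known, as a readout of the timing of body temperature. They came from the 19689 mouse rows of a liver count table and the 20415 rows of a count table of the other tissues. The shares of all genes set beside them below are therefore descriptions. No record of body temperature, activity or feeding was used here, so peak times are those of transcripts. All 9 were found in both tables, and all 9 passed the filter on low counts in each tissue. The samples were 98 RNA-seq libraries of 4 tissues, the liver, skeletal muscle and 2 nuclei of the hypothalamus, the arcuate (ARC) and the suprachiasmatic (SCN), collected every 4 h from zeitgeber time (ZT) 2 to ZT 22. Liver and muscle each had 15 Hu and 12 Mu libraries, and ARC and SCN each had 10 Hu and 12 Mu, with 2 per ZT and arm except 3 in Hu liver and muscle at ZT 2, ZT 6 and ZT 18, and 1 in Hu ARC and SCN at ZT 6 and ZT 22. All animals were 10-week-old male FRGN mice, which lack Fah, Rag2 and Il2rg on a non-obese diabetic background, so that they lose their own hepatocytes without nitisinone and lack an adaptive immune system. In the Hu arm the liver had been repopulated with transplanted human hepatocytes, and in the Mu arm with transplanted murine hepatocytes. Both arms were given cycles of nitisinone, sulfamethoxazole with trimethoprim, and dextrose water, and a high-energy diet, and the labels describe no unmanipulated mice. Mice of the Hu arm had been selected for a high human repopulation, and such a liver keeps mouse stellate, Kupffer, endothelial and bile duct cells and a remainder of mouse hepatocytes. The other tissues are of mouse origin in both arms.

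Body temperature of a mouse falls and rises with its rest and activity, and this daily cycle is read by genes in nearly every cell. Cirbp and Rbm3 rise under mild cooling, and their proteins bind RNA and influence splicing and poly(A) site choice, among others of clock transcripts. Heat shock genes rise on warming through heat shock factor 1 (HSF1), a transcription factor that binds inverted GAA repeats called heat shock elements. Their products are chaperones: Hspa8 is the constitutive HSP70, Hspa1a and Hspa1b are the inducible HSP70 copies, Dnajb1 is their HSP40 partner, Hsph1 is an HSP110 nucleotide exchange factor, Hsp90aa1 is the inducible cytosolic HSP90, and Hspb1 is a small heat shock protein. In liver this system is known to follow feeding and body temperature cycles, and HSF1 is active in the dark phase, when mice eat and move.

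Promoter stretches are shown for 5 members: Hspa1a, Hspa1b and Hsph1, which were high in the dark phase of Mu livers, Cirbp, which was high in the light phase, and Hspb1, which holds more than 1 match. The RefSeq promoter table (GRCm38.p6) held 6 of the 9 members, with none for Rbm3, Hsp90aa1 or Hspa8. Its 250 bases upstream of the start site were searched for a heat shock element core in either arrangement, TTCNNGAA or GAANNTTC, each its own reverse complement, and for TCCCCGCC with its reverse complement GGCGGGGA, the mild-cold response element described for Cirbp. Capitals mark the matches, except that the cold element is marked in Cirbp only.
Hspa1a (chr17:34972217-34972296, minus strand): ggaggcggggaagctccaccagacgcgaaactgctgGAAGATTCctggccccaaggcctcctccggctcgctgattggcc
Hspb1 (chr5:135887779-135887858, plus strand): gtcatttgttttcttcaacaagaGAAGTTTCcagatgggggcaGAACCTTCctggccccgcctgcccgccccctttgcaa
Hsph1 (chr5:149636352-149636381, minus strand): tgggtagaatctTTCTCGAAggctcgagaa
Cirbp (chr10:80167589-80167668, plus strand): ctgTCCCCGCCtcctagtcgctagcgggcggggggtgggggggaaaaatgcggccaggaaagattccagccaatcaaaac
The Hspa1b stretch (chr17:34959299-34959378, minus strand) has the same letters as that of Hspa1a, both from 140 to 61 bases before the start site, and the pair differ at 3 of 250 upstream bases. Hspb1 holds 2 GAANNTTC cores, at 117 and 97 bases before the start site, Hspa1a and Hspa1b hold 1 each, and Hsph1 holds 1 TTCNNGAA core 33 bases before it. The Hsph1 stretch overlaps an exon of 1 longer transcript of that gene. The Cirbp match lies 247 bases before the start site, between exons of longer Cirbp transcripts. Dnajb1 held neither arrangement in its 250 bases. Of 32851 promoter windows in the table, 7.17% hold TTCNNGAA, 6.69% hold GAANNTTC and 4.64% hold the cold element, and the reverse complement of the latter also occurs in Hspa1a and Hspa1b. A match of letters is a description and not a measured binding site.

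The genes lie on several chromosomes (GENCODE M21, GRCm38): Cirbp at chr10:80165985-80172786, Rbm3 at chrX:8138975-8145880, Hsph1 at chr5:149614287-149636376, Hsp90aa1 at chr12:110690605-110702728, Dnajb1 at chr8:83608193-83612653, Hspa8 at chr9:40800984-40810087 and Hspb1 at chr5:135887919-135889563. Hspa1a (chr17:34969190-34972156) and Hspa1b (chr17:34956436-34959238) are neighbours. Of the 100-base stretches of the longest coding transcript, 48.6% of those in Hspa1a and 49.9% of those in Hspa1b also occur in another gene, in both cases mostly in the other copy. The shares are 62.8% for Hspa8, 47.6% for Hsp90aa1, 42.7% for Hspb1 and 8.58% for Rbm3, mostly with pseudogenes, and 0% for Cirbp, Hsph1 and Dnajb1. How the authors counted reads that match several places is not given in the sources used here, so the values of the genes with shared stretches are uncertain to that extent, and Hspa1a and Hspa1b are not independent measurements. Rbm3 overlaps the antisense gene Rbm3os and Hspa1a overlaps Gm20481 on the opposite strand, and whether counting used strand is not given.

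Levels are CPM, mouse counts scaled to a common library total after TMM normalization, so every level in liver is relative to the mouse RNA alone. Liver libraries held 22.95 to 122.2 M counts, of which 7.70 to 87.9 M were in mouse rows of Hu livers, and human rows took 15.9% to 93.1% of the counts in Hu livers and 0.00592% to 0.0204% in Mu livers. Muscle libraries held 43.1 to 92.1 M, ARC 23.7 to 47.1 M and SCN 25.5 to 34.9 M counts. Summed CPM of 6 hepatocyte markers was 90779 to 124072 in Mu livers and 7499 to 83198 in the mouse RNA of Hu livers, while 5 bile duct markers summed to 73.4 to 162 and 236 to 867 CPM. In a bulk sample, fewer cells of a type and less RNA per cell cannot be told apart. ARC neuron markers were higher in ARC than in SCN libraries (Pomc median 33.6 against 2.01 CPM), but of 5 SCN neuron markers 3 had a lower median in SCN libraries than in ARC. These were Vip (3.84 against 4.22 CPM), Avp (64.5 against 199.9) and Lhx1 (3.79 against 10.7). Prok2 (0.892 against 0.617) and Nms (1.12 against 0.894) had a higher one, and the ranges of all 5 overlapped between the tissues. Values given for the SCN are therefore those of the libraries labelled SCN. Liver libraries of Hu ZT 18 replicate 3 and Hu ZT 22 replicate 2 had the fewest mouse counts, and muscle libraries of Hu ZT 6 replicate 1 and Hu ZT 14 replicate 2 correlated least with their arm. The labels do not name the animal behind a library, so p-values measure only the spread between these libraries, which may be technical.

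For each gene a cosine of 24 h period was fitted in each arm. The phase is the time of the fitted peak, the amplitude is the log2 distance from mean to peak, and a phase difference is Hu minus Mu. The standard error (SE) of a phase was found by leaving out the libraries in turn (jackknife). A rhythm common to both arms means that the average of the 2 fitted curves is not flat, which 1 arm alone can bring about. Adjusted p-values come from edgeR's quasi-likelihood test with Benjamini-Hochberg adjustment over all genes tested in the tissue, and a gene was called under 0.05.

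In Mu livers the daily swing of Cirbp was large. At ZT 2 its level was 94.7 and 43.2 CPM, at ZT 6 40.8 and 84.03, at ZT 10 56.3 and 69.3, at ZT 14 19.8 and 18.1, at ZT 18 15.4 and 12.6 and at ZT 22 22.3 and 25.8 CPM. Every library from ZT 2 to ZT 10 (40.8 to 94.7 CPM) was above every library from ZT 14 to ZT 22 (12.6 to 25.8 CPM). The fitted peak lay at ZT 5.61 ± 0.65 h (SE), with an amplitude of 1.30, a 6.03-fold range from trough to peak (adjusted p = 3.90e-04). In Hu livers it was at 31.5, 27.7 and 26.7 CPM at ZT 2, 31.6, 27.7 and 29.6 at ZT 6, 26.4 and 21.2 at ZT 10, 23.7 and 50.9 at ZT 14, 25.8, 13.1 and 28.2 at ZT 18 and 24.8 and 11.8 at ZT 22. The light-phase libraries (21.2 to 31.6 CPM) overlapped the dark-phase ones (11.8 to 50.9 CPM), and both the lowest and the highest Hu values fell in the dark phase. The Hu amplitude was 0.26 (adjusted p = 0.669), and the rhythm of Cirbp was called different between arms (adjusted p = 0.0422). That call held in 10 of the 27 fits that left out 1 library. The peak in Hu livers, ZT 9.43 ± 3.89 h, is poorly fixed by such a flat curve.

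Rbm3, the other cold-inducible gene, did not share the timing of Cirbp in Mu livers. Its level was 34.5 and 32.97 CPM at ZT 2, 37.4 and 37.9 at ZT 6, 65.5 and 59.6 at ZT 10, 63.3 and 64.3 at ZT 14, 42.5 and 45.7 at ZT 18 and 37.7 and 39.7 at ZT 22. The highest libraries were those of ZT 10 and ZT 14, around the passage from light to dark, and the fitted peak came 7.31 h after that of Cirbp, at ZT 12.92 ± 0.64 h (amplitude 0.48, adjusted p = 5.15e-04). In Hu livers Rbm3 was at 46.9, 50.8 and 48.4 CPM at ZT 2, 65.5 and 64.7 at ZT 10 and 62.6 and 93.4 at ZT 14, with an amplitude of 0.36 and a peak -1.58 ± 1.21 h from that in Mu. Its rhythm in Hu missed the threshold (adjusted p = 0.0721), as did the difference in rhythm (adjusted p = 0.380). The common rhythm was called (adjusted p = 6.15e-05).

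**Figure D1:**
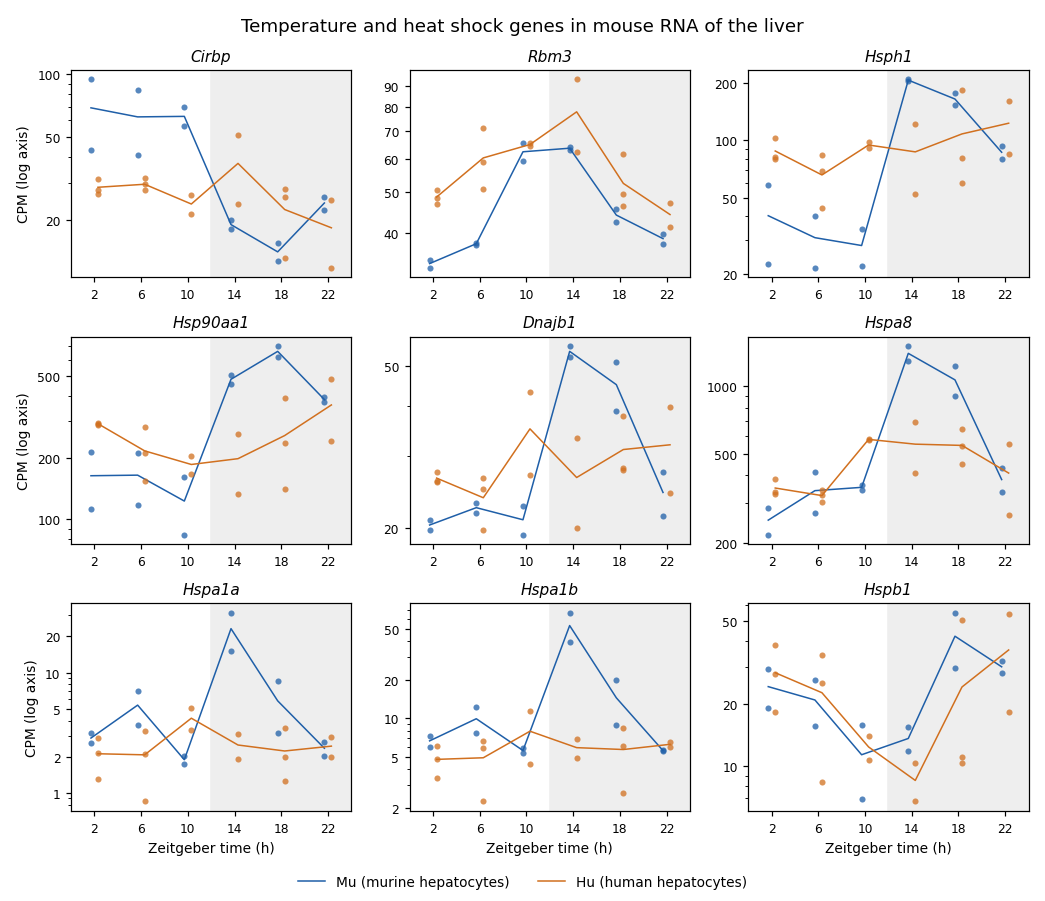
CPM of mouse counts (log axis) of the 9 genes in liver by zeitgeber time (h), with 1 point per library and lines through the means; blue is Mu, orange is Hu, and grey marks ZT 12 to ZT 24. In Mu, Cirbp is high before ZT 12 and Hsph1, Hsp90aa1 and Hspa8 are high after it, while Hu curves are flatter for all genes but Hspb1.

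Of the 7 heat shock genes of Mu livers, the 6 that were called were high after the onset of the dark phase. The fitted peaks of all 7 lay in an order from Hspa1a to Hspb1. Hsph1, the HSP110 exchange factor, was at 22.5 and 58.1 CPM at ZT 2, 40.3 and 21.5 at ZT 6 and 34.2 and 21.98 at ZT 10, and then at 205 and 209.8 at ZT 14, 177 and 153 at ZT 18 and 80.3 and 93.2 at ZT 22. All dark-phase libraries of the Mu arm were above all light-phase ones. Its peak lay at ZT 17.21 ± 0.86 h, 11.6 h after that of Cirbp, with a 7.83-fold range (adjusted p = 4.55e-04). Hsp90aa1 likewise had no overlap between light (84.2 to 213 CPM) and dark (373 to 699 CPM) and peaked at ZT 17.97 ± 0.74 h (adjusted p = 6.07e-04).

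Hspa8, the constitutive HSP70 and one of the most abundant members, stepped up between ZT 10 and ZT 14 in Mu livers. It was at 345 and 362 CPM at ZT 10, 1510.0 and 1291 at ZT 14, 1231 and 902 at ZT 18 and 337 and 429.5 at ZT 22, with a 5.25-fold fitted range (adjusted p = 6.21e-05). At ZT 22 it was near its light-phase range of 218 to 413 CPM, whereas Hsph1 and Hsp90aa1 were still above theirs. Its HSP40 partner Dnajb1 followed the same course, with 22.6 and 19.2 CPM at ZT 10, 52.7 and 56.1 at ZT 14, 51.4 and 38.7 at ZT 18 and 21.4 and 27.5 at ZT 22. Both fitted peaks lay between ZT 14 and ZT 18, Hspa8 at ZT 15.51 ± 0.83 h and Dnajb1 at ZT 15.88 ± 1.01 h (adjusted p = 0.00169 for the rhythm of Dnajb1).

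The inducible HSP70 copies were high in few libraries. Hspa1b in Mu livers was at 5.83 and 5.38 CPM at ZT 10, 39.4 and 66.6 at ZT 14, 20.1 and 8.85 at ZT 18 and 5.68 and 5.52 at ZT 22. Hspa1a, at lower levels, was at 1.74 and 2.03, 15.01 and 31.4, 8.50 and 3.16 and 2.67 and 2.03 CPM at the same times. Only the ZT 14 libraries, and ZT 18 replicate 1, stood above the light-phase range for both copies, a narrower peak than a cosine. Both rhythms were called in Mu (adjusted p = 0.0212 for Hspa1a and 0.00724 for Hspa1b), but without Mu ZT 14 replicate 2 neither was (adjusted p = 0.245 and 0.0763), and Hspa1a was lost in 2 of the 27 fits that left out 1 library. Hspb1, the small heat shock protein, was the last of the order, with 26.04 and 15.7 CPM at ZT 6, 15.7 and 6.99 at ZT 10, 54.97 and 29.8 at ZT 18 and 32.2 and 28.2 at ZT 22. At ZT 14 it was at 11.8 to 15.4 CPM, within its light-phase range of 6.99 to 29.4 CPM. Its fitted peak lay at ZT 21.63 ± 1.51 h, and its rhythm missed the threshold in Mu (adjusted p = 0.137).

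In all, 8 of the 9 genes had a rhythm in Mu livers, against 17.3% of the 14977 genes tested. In Hu livers edgeR called 0 of 9, where 0.167% of genes were called, and DESeq2 called 1, beside 518 of 14977 genes. At an unadjusted p under 0.05, 3 of 9 passed in Hu (Rbm3, Hspa8 and Hspb1), beside 15.8% of all genes. Of the fitted amplitudes, 8 of 9 were smaller in Hu than in Mu, with medians of 0.33 and 1.20, and over all genes tested the medians were 0.20 and 0.27. The exception was Hspb1, with 0.89 in Hu and 0.79 in Mu, and with Hu livers at 18.2, 38.6 and 27.97 CPM at ZT 2, 10.3 and 6.77 at ZT 14 and 18.2 and 54.6 at ZT 22. A difference in rhythm itself was called for 2 members, beside 1.28% of genes: for Cirbp, above, and for Hsp90aa1 (adjusted p = 0.0498). Hsp90aa1 had amplitudes of 1.17 in Mu and 0.46 in Hu. Its fitted peak came 4.79 ± 1.76 h later in Hu, but its rhythm in Hu was not called (adjusted p = 0.321), so a delay is not shown. In Hu livers Hsp90aa1 was at 153 to 295 CPM in the light phase and 133 to 480.3 CPM in the dark phase, which overlap. Both calls are close to the threshold, and both were lost with ZT as a factor (adjusted p = 0.222 and 0.365). Of the 27 fits that left out 1 library, 10 kept the call of Cirbp and 9 that of Hsp90aa1. These fits gave 0 to 4 calls, with a count more than 1.5 times above or below 2 for 21 of them. The largest adjusted p came without Mu ZT 14 replicate 2 for both (0.0947 for Cirbp and 0.105 for Hsp90aa1). The common rhythm was called for 8 of 9 members, all but Hspa1a, beside 14.1% of genes. With library sizes taken over human and mouse rows together, so that the human share enters every mouse level, 3 members were called in Mu, 3 in Hu, 4 in common and 0 for a different rhythm. Of the 14732 genes tested under this scaling, 85 were called in Mu, 8605 in Hu, 1139 in common and 11 for a different rhythm. The human share itself varied between time points of Hu livers, and its part in these counts was not tested.

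Single Hu livers show how the curves differ. Hsph1 was at 90.8 and 98.6 CPM at ZT 10, 122 and 52.1 at ZT 14, 81.2, 184 and 59.8 at ZT 18 and 84.6 and 162 at ZT 22, so that replicates of 1 time point lay far apart. Hspa8 was at 343, 305 and 327 CPM at ZT 6, 579.9 and 578 at ZT 10 and 693 and 409 at ZT 14, so its libraries of ZT 10, before the dark phase, were above those of ZT 6. Dnajb1 in Hu ranged from 19.8 to 43.1 CPM and Hspa1b from 2.25 to 11.5 CPM, and both were highest in ZT 10 replicate 2. The library of Hu ZT 18 replicate 2 had the highest Hsph1 and the second lowest Cirbp of the Hu livers. Hu ZT 22 replicate 2 had the lowest Cirbp and the second highest Hsph1, and Hu ZT 14 replicate 2 had the highest Cirbp and Rbm3. The Hu arm is also the arm whose mouse RNA holds fewer hepatocyte and more bile duct transcripts, and the part of cell composition in these curves was not tested. The clock genes of the same libraries, 17 genes such as Arntl, Nr1d1 and Dbp, had smaller amplitudes in Hu for 17 of 17, with medians of 1.10 against 1.91.

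Time-averaged levels in liver were called different for 4 members, where 79.5% of all genes were, so a call here is common. Hspa1a and Hspa1b were lower in Hu, by log2 differences of -1.17 ± 0.33 and -1.12 ± 0.29 (SE, adjusted p = 0.00243 and 0.00114). Cirbp was lower by 0.40 ± 0.18 on the log2 scale (adjusted p = 0.0407), a call lost when any of 12 of 27 libraries was left out (adjusted p up to 0.124, without Mu ZT 2 replicate 1) and when both libraries of fewest mouse counts were (adjusted p = 0.0619). Rbm3 was higher by 0.33 ± 0.07 (adjusted p = 2.26e-04), but scaled to human and mouse counts together its difference was -0.41 (adjusted p = 0.0534), a scaling that moves the median of all genes from 0.07 to -0.70. Relative to that median Rbm3 was higher under both scalings. The other 5 members were not called, with log2 differences from -0.23 (Hspa8) to 0.36 (Hsph1).

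Among the 15 Hu livers, the level of the inducible HSP70 copies was higher where the share of human counts was higher. Pearson's r of log2 CPM with the human share was 0.742 for Hspa1a (permutation p = 0.00191, 0.0172 with Benjamini-Hochberg adjustment over the 9 relations computed) and 0.670 for Hspa1b (permutation p = 0.00636, adjusted 0.0286). Spearman's rho was 0.657 (permutation p = 0.00972) and 0.621 (permutation p = 0.0157), each 0.0708 after adjustment. Without the 2 livers farthest from the median share, r was 0.700 and 0.595. By Pearson's r neither copy was called without Hu ZT 6 replicate 1, the library with the lowest level of both, and 1 was called without Hu ZT 2 replicate 1, ZT 10 replicate 2 or ZT 18 replicate 3. The other 7 members had r between -0.353 (Hsp90aa1) and 0.321 (Hspa8), none called. How reads that fit both the human and the mouse copy of these conserved genes were assigned is not given in the sources used here, and its part in this relation was not tested.

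Other genes of the heat shock system were read from a list. Of 41 further chaperones, co-chaperones and heat shock factors, 39 were tested, and 13 had a rhythm in Mu, 0 in Hu and 11 in common, where 17.3%, 0.167% and 14.1% of all genes did. Chordc1, an HSP90 co-chaperone, peaked at ZT 17.48 with a 2.23-fold range in the common curve (adjusted p = 1.07e-04), Dnaja1, an HSP40, at ZT 15.84 (2.04-fold) and Hspa2, an HSP70, at ZT 14.89 (2.22-fold). In level, 4 of the 39 were higher and 23 lower in Hu (median log2 difference -0.27, against 0.07 over all genes, of which 79.5% were called), led by the co-chaperones Fkbp4, Dnajb2 and Dnaja4 with -1.01, -0.93 and -1.06. Of 15 temperature-sensitive RNA processing genes, 5 had a rhythm in Mu, 0 in Hu and 4 in common, and among them the splicing regulators Tra2a and Srsf10 peaked at ZT 15.16 and 17.41. In level, 1 of the 15 was higher in Hu and 6 were lower, beside the same 79.5% of all genes. The lower ones include the kinase Clk3 with a log2 difference of -0.73, U2af1l4 with -0.52 and Srsf2 with -0.48.

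In skeletal muscle fewer of the 9 genes were called. Hspa8 was called in Mu (adjusted p = 0.0322), with 499 and 449 CPM at ZT 10, 542 and 595 at ZT 14, 1173 and 760.3 at ZT 18 and 825 and 693 at ZT 22. The ZT 18 and ZT 22 libraries were above all others of that arm, and the fitted peak lay at ZT 19.41 ± 1.40 h. It was the only member called in Mu muscle (1 of 9, 5.31% of genes). The count was 0 without any 1 of Mu ZT 10 replicate 1 or 2, ZT 14 replicate 2, ZT 18 replicate 1 or 2 and ZT 22 replicate 1 (adjusted p of Hspa8 up to 0.154), 4 without Mu ZT 6 replicate 1 and 2 without Hu ZT 6 replicate 1. DESeq2 called 4 members in Mu muscle and limma with array weights 7, but they also called more of the 14197 genes, 1464 and 3483, against 754 by edgeR. In Hu muscle 1 of 9 was called (7.78% of genes), Hspb1 (adjusted p = 0.0278), whose ZT 14 libraries were at 572 and 231 CPM against 70.4, 103 and 120.0 CPM at ZT 2, and without Hu ZT 14 replicate 1 its adjusted p was 0.142. With limma the 1 called was Dnajb1 (adjusted p = 0.0214, 797 of 14197 genes) and not Hspb1 (0.125). Without the 2 muscle libraries that correlated least with their arm it was again Dnajb1 (0.0097, 725 of 14102 genes) and not Hspb1 (0.0635). By edgeR the count in Hu was 3 without Mu ZT 6 replicate 1 or Mu ZT 18 replicate 1, and 2 without Hu ZT 6 replicate 1.

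The inducible HSP70 copies in muscle were set by single libraries. Hspa1b in Mu muscle was at 5.96 and 3.88 CPM at ZT 2, 35.99 and 2.38 at ZT 6, 4.90 and 3.27 at ZT 10, 7.07 and 20.3 at ZT 14, 309 and 14.8 at ZT 18 and 27.3 and 15.1 at ZT 22. Replicate 1 of ZT 18 had more of both copies than any other muscle library, with 227 CPM of Hspa1a. That library also had the highest Hsph1, Hsp90aa1 and Hspa8 of all muscle libraries. In Hu muscle Hspa1b was highest at ZT 14 in replicate 1 (46.1 and 5.87 CPM at ZT 14) and at ZT 18 in replicate 3 (10.5, 4.15 and 24.8 CPM at ZT 18). The common rhythm was called for 4 members, beside 14.4% of genes: Dnajb1, at 4.99 to 18.7 CPM in Mu and 5.69 to 21.97 CPM in Hu (adjusted p = 0.0265), Hspa8 (0.00423), Hspa1a (0.0377) and Hspa1b (0.0319). The count was 7 without Mu ZT 6 replicate 1, 2 without Mu ZT 18 replicate 1, Hu ZT 18 replicate 3, Mu ZT 2 replicate 2 or Mu ZT 6 replicate 2, and 1 without Mu ZT 2 replicate 1.

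**Figure D2:**
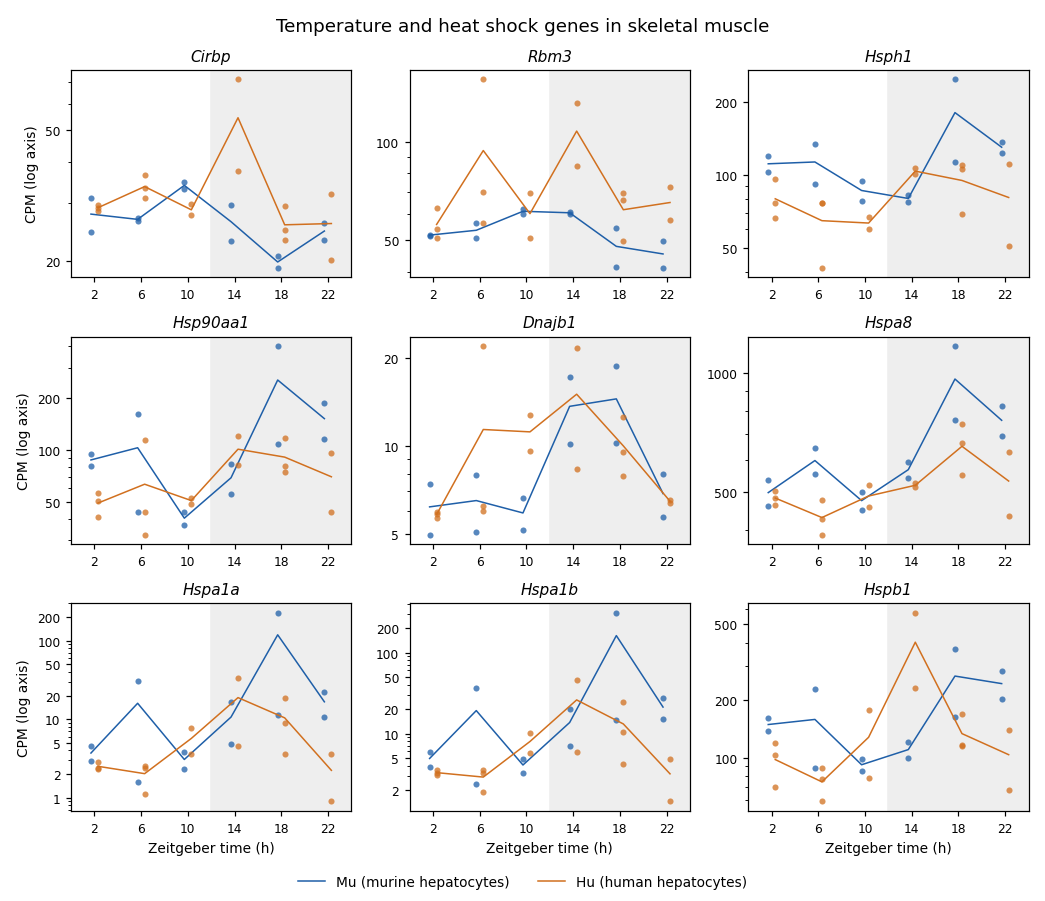
CPM (log axis) of the 9 genes in skeletal muscle by zeitgeber time (h), drawn as in the liver plot, with blue for Mu and orange for Hu. Single Mu libraries at ZT 6 and ZT 18 and 1 Hu library at ZT 14 stand far above their replicates for Hspa1a and Hspa1b.

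All 7 heat shock genes had an earlier fitted peak in Hu than in Mu muscle, by 1.29 to 6.94 h. The size was -1.29 ± 1.71 h (SE) for Hspa8, -4.40 ± 2.44 h for Dnajb1, -4.83 ± 3.08 h for Hsp90aa1 and -6.94 ± 2.30 h for Hspb1. Cirbp (3.80 ± 3.35 h) and Rbm3 (0.49 ± 3.83 h) had a later fitted peak in Hu. By edgeR 0 of 9 members had a different rhythm, where 0.0704% of genes did. At an unadjusted p under 0.05 it was 1 of 9, Hspb1, beside 13.8% of genes, and DESeq2 called 0. The shift of any single member is thus not shown. In the same libraries 17 of 17 clock genes peaked earlier in Hu, with a median of -3.58 h, and the median over all genes tested was -1.75 h.

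Cirbp and Rbm3 in Mu muscle had their lowest values at ZT 18 and ZT 22, and neither rhythm was called. In Mu muscle Cirbp was 34.8 and 33.1 CPM at ZT 10 and 19.1 and 20.7 CPM at ZT 18, with an amplitude of 0.26 (adjusted p = 0.400). Rbm3 in Mu muscle ranged from 41.2 to 62.4 CPM. In Hu muscle 2 libraries had far more Rbm3 than the rest, ZT 6 replicate 1 with 155 CPM and ZT 14 replicate 2 with 131 CPM. They are the libraries that correlated least with their arm, and ZT 14 replicate 2 also had the highest Cirbp.

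In level, 5 members differed between muscle of the 2 arms, where 26.9% of genes did. Rbm3 was higher in Hu (0.47 ± 0.15 log2, adjusted p = 0.0216), with Mu libraries at 41.2 to 62.4 CPM and Hu libraries at 49.7 to 155 CPM. Hsph1, at 77.7, 108 and 248 CPM in Mu and 41.7, 76.8 and 111 CPM in Hu (lowest, median and highest), was lower (-0.51 ± 0.15, adjusted p = 0.0157), as was Hspa8 (-0.29 ± 0.09, adjusted p = 0.0231). Both calls of the HSP70 copies, -1.90 ± 0.57 for Hspa1a and -1.82 ± 0.55 for Hspa1b (adjusted p = 0.0166 and 0.0181), rested on 2 Mu libraries: without ZT 6 replicate 1 the differences were -0.81 and -0.81 (adjusted p = 0.177 and 0.172), and without ZT 18 replicate 1 they were -0.98 and -0.89 (adjusted p = 0.120 and 0.140). The call of Hspa8 was lost without either as well (-0.23 and -0.22, adjusted p = 0.0587 and 0.0531), and 2 members were called without either library. Fat markers summed to 135 to 2159 CPM in Mu and 229 to 2751 CPM in Hu muscle, and slow fibre markers to 135 to 2244 and 79.0 to 815 CPM, and their part in these differences was not tested.

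Of the 41 other heat shock system genes, all tested in muscle, 2 had a rhythm in Mu, 3 in Hu and 8 in common, beside 5.31%, 7.78% and 14.4% of all genes. The HSP40 genes Dnajb4 and Dnaja1 peaked at ZT 16.54 and 17.39 with 2.34- and 2.23-fold ranges. In level, 2 were higher and 15 lower in Hu (median -0.17 log2, against 0.03 over all genes, of which 26.9% were called). The differences with the smallest p were those of Hspbp1, which binds HSP70 (-0.27), the heat shock factor Hsf4 (0.48) and the HSP110 family member Hspa4l (-0.79). Of the 15 RNA processing genes, 0 had a rhythm in Mu, 4 in Hu and 7 in common (the shares of all genes are those just given), with the splicing factors Srsf7, Srsf5 and Rbmx peaking at ZT 12.01, 6.59 and 13.95. In level, Clk1 and Srsf5 were higher in Hu, by 0.29 and 0.33, and 0 were lower.

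In the ARC, the hypothalamic nucleus of feeding and energy balance, both cold-inducible genes and 2 heat shock genes had a rhythm in Mu. Cirbp in Mu was at 86.1 and 81.1 CPM at ZT 2, 121 and 110.1 at ZT 6, 114 and 117 at ZT 10, 106 and 101 at ZT 14, 96.1 and 80.2 at ZT 18 and 58.96 and 65.9 at ZT 22. In Hu it was at 96.5 and 92.2, 109, 118 and 116, 86.3 and 102, 78.3 and 88.3 and 82.6 CPM at the same times. In both arms the highest values lay at ZT 6 and ZT 10, and at ZT 22 the Mu libraries were lower than that of Hu. Peaks were at ZT 9.79 ± 0.57 h in Mu (adjusted p = 5.71e-04) and ZT 8.24 ± 0.64 h in Hu. Rbm3 again peaked later, 2.93 h after Cirbp in Mu, at ZT 12.72 ± 0.69 h, with a 2.20-fold range (adjusted p = 4.56e-04). It rose from 55.8 and 51.2 CPM at ZT 2 to 121 and 94.8 CPM at ZT 14 in Mu, and in Hu it was at 67.1 and 61.7 and 86.97 and 94.99 CPM at these times.

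Of the heat shock genes of the ARC, Hsph1 and Dnajb1 were called in Mu. Hsph1 was low at ZT 10 (305 and 287 CPM in Mu, 299 and 293 in Hu) and highest at ZT 22 in Mu (437 and 428 CPM), a 1.42-fold range with a peak at ZT 22.43 ± 0.76 h (adjusted p = 0.00441). Dnajb1 stepped up between ZT 10 and ZT 14: in Mu its light-phase libraries were at 53.02 to 63.9 CPM and its dark-phase libraries at 75.7 to 90.4 CPM. In Hu they were at 55.1 to 64.97 and 69.1 to 80.3 CPM, so that light and dark did not overlap in either arm. Its rhythm was called in Mu (adjusted p = 0.0204, and 0.0511 without Mu ZT 22 replicate 2), with a peak at ZT 18.12 ± 1.19 h. Hspa8 and Hsp90aa1, among the most abundant members, ranged only 985 to 1441 and 1294 to 1781 CPM in Mu, and the common rhythm was called for Hspa8 (adjusted p = 0.00958) and not for Hsp90aa1 (0.160). Hspa1a, Hspa1b and Hspb1 were at 2.66 to 6.54, 5.26 to 10.5 and 1.95 to 7.95 CPM, without the surges seen in liver and muscle.

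Of the 9 members, 4 had a rhythm in Mu ARC (Cirbp, Rbm3, Hsph1 and Dnajb1), where 1.41% of genes did. In Hu, with 10 libraries, edgeR called 0 of 9 (0.0995% of genes) and DESeq2 2 (87 of 15079 genes). By edgeR 6 of 9 had an unadjusted p under 0.05, beside 5.87% of genes. The common rhythm was called for 6, beside 3.41% of genes: the 4 above, Hspa8, and Hspa1b (adjusted p = 0.0447), whose call was lost when any of 15 of 22 libraries was left out (adjusted p up to 0.109, without Hu ZT 18 replicate 1). A different rhythm was called for 0 of 9 (0% of genes, also 0 with DESeq2), with 1 of 9, Cirbp, at an unadjusted p under 0.05 (1.78% of genes). All 9 fitted peaks were earlier in Hu, by 0.06 to 2.14 h, with -1.55 ± 0.85 h for Cirbp, -1.35 ± 1.10 h for Hsph1 and -1.53 ± 1.39 h for Dnajb1. The members share their libraries, and over all genes tested the median was -0.39 h. In level, 0 of 9 were called by edgeR or DESeq2 (0.00663% of genes by edgeR), 0 of 9 had an unadjusted p under 0.05 (4.24% of genes), and the fitted differences were between -0.09 (Hspa1b, SE 0.09) and 0.05 (Cirbp, SE 0.05) log2.

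**Figure D3:**
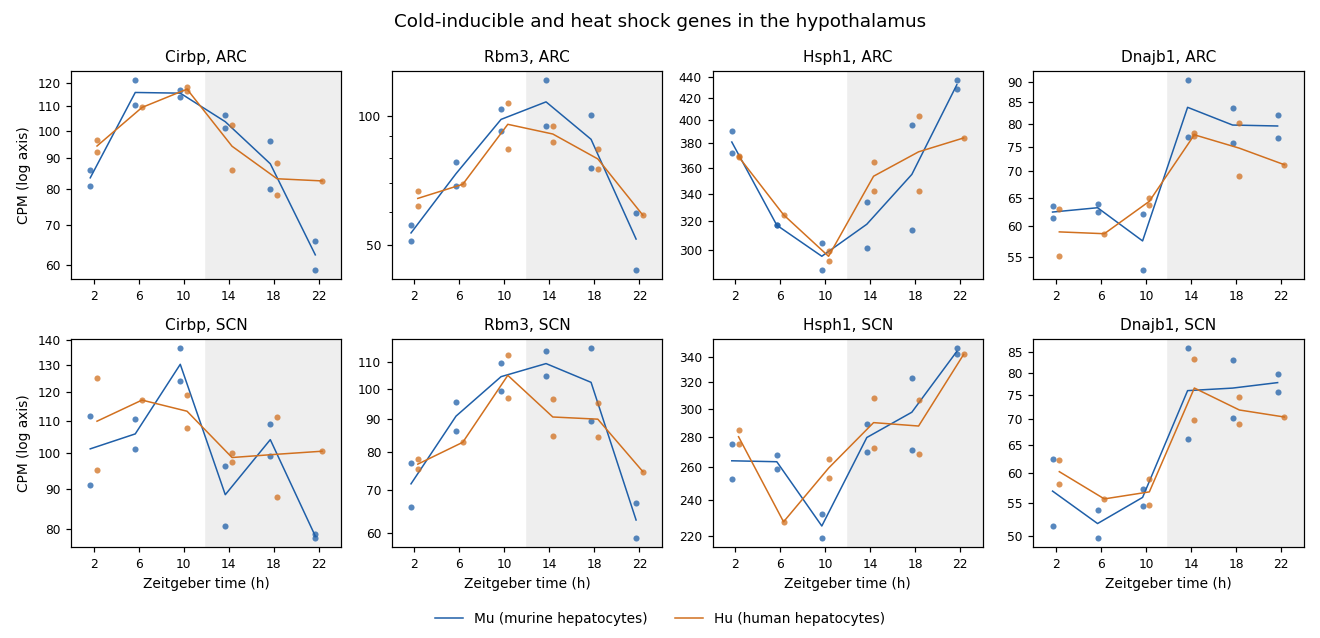
CPM (log axis) of Cirbp, Rbm3, Hsph1 and Dnajb1 in ARC (top) and SCN libraries (bottom) by zeitgeber time (h), with 1 point per library and lines through the means, blue for Mu and orange for Hu. Cirbp and Rbm3 are high around ZT 6 to ZT 14, Hsph1 is lowest near ZT 10, and Dnajb1 steps up from ZT 10 to ZT 14 in both arms.

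Of the 41 other heat shock system genes, 39 were tested in the ARC, with 5 called in Mu, 0 in Hu and 7 in common, beside 1.41%, 0.0995% and 3.41% of all genes. Chordc1 peaked at ZT 19.02, Stip1, the HSP70-HSP90 organizing protein, at ZT 21.59 and Hspa2 at ZT 16.47, with ranges of 1.40-, 1.31- and 1.40-fold. Of the 15 RNA processing genes, 5 were called in Mu, 0 in Hu and 6 in common, beside the same shares. Hnrnpdl, an RNA-binding protein, peaked at ZT 7.51 and the splicing regulators Tra2a and Tra2b at ZT 18.62 and 15.51. In level 0 genes of either list differed between arms.

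In the libraries labelled SCN, Rbm3 and Dnajb1 had a rhythm in Mu (2 of 9, 0.207% of genes). Rbm3 in Mu rose from 65.8 and 77.1 CPM at ZT 2 to 114 and 105 CPM at ZT 14 and was at 66.7 and 58.9 CPM at ZT 22, with a peak at ZT 12.42 ± 0.999 h (adjusted p = 0.0279). Dnajb1 in Mu was at 49.8 to 62.4 CPM in the light phase and 66.2 to 85.9 CPM in the dark phase (adjusted p = 0.0279), and in Hu at 54.7 to 62.3 and 69.2 to 83.3 CPM, again without overlap in either arm. Leaving out 1 library gave 0 to 2 calls, a changed count for 8 libraries, all of the Mu arm: 1 without ZT 2 replicate 1, ZT 6 replicate 1 or ZT 14 replicate 1, and 0 without ZT 6 replicate 2, ZT 10 replicate 1, ZT 18 replicate 2 or either of ZT 22. Cirbp, rhythmic in ARC, was not called in SCN libraries (amplitude 0.22 in Mu, adjusted p = 0.339), and its difference between the tissues was not tested.

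The common rhythm in SCN libraries was called for Rbm3 (adjusted p = 0.00758), Dnajb1 (0.00494) and Hsph1 (0.0371, and up to 0.105 when 1 of 12 libraries was left out), that is 3 of 9, beside 0.886% of genes. In Hu edgeR and DESeq2 called 0 of 9 (0.00666% of genes by edgeR), and 3 of 9 had an unadjusted p under 0.05 (5.52% of genes). A different rhythm and a different level were called for 0 of 9 each by both tools (0% and 0% of genes by edgeR), and at an unadjusted p under 0.05 for 0 of 9 each, beside 1.4% and 2.17% of genes. Hsph1 was at 219 to 275 CPM in the light and 270.0 to 348 CPM in the dark in Mu, and at 228 to 285 and 268 to 342 CPM in Hu. Peaks were earlier in Hu for 6 of 9 members, with -0.65 ± 1.75 h for Rbm3 and -0.93 ± 1.72 h for Hsph1, within the SE of each. They were also earlier for 8215 of the 15006 genes tested, and the median was -0.65 h for the members and -0.54 h over all genes. Amplitudes were smaller in Hu for 9 of 9, with medians of 0.17 and 0.32 (0.10 and 0.11 over all genes). Of the other heat shock system genes, 38 were tested, 0 were called in either arm and 2 in common (0.886% of all genes), Ahsa1 and Fkbp4, both HSP90 co-chaperones, at ZT 20.67 and 20.09. Of the 15 RNA processing genes, 0 were called in either arm and 2 in common, Tra2a at ZT 18.84 and Tra2b at ZT 16.83.

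**Figure D4:**
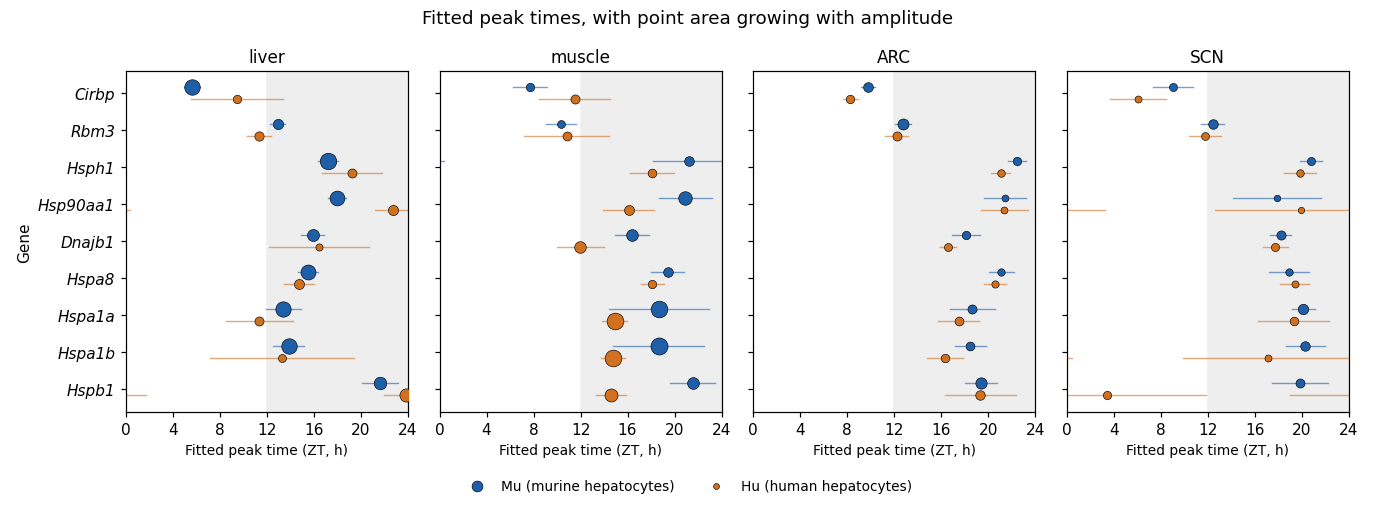
Fitted peak time (ZT, h) of the 9 genes in each tissue, with lines of ± 1 jackknife SE over libraries and point area growing with amplitude; blue is Mu and orange is Hu. In Mu, Cirbp peaks before Rbm3 in the 4 tissues and the heat shock genes peak after ZT 12, and the orange points of muscle lie to the left of the blue ones for the heat shock genes.

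Fitted peaks can be set side by side across tissues of the Mu arm, though in muscle only Hspa8 and in SCN only Rbm3 and Dnajb1 had a called rhythm there. The fitted peak of Cirbp came before that of Rbm3 in all 4 tissues, by 7.31 h in liver, 2.63 h in muscle, 2.93 h in ARC and 3.36 h in SCN. The fitted peaks of the 7 heat shock genes all lay between ZT 12 and ZT 24 in Mu, in liver from ZT 13.39 to 21.63, in muscle from ZT 16.39 to 21.53, in ARC from ZT 18.12 to 22.43 and in SCN from ZT 17.89 to 20.79. In Hu, 7 of 7 did in ARC and 6 of 7 in each of liver, muscle and SCN. The order within the heat shock genes was not tested. In Mu the fitted peak of Hsph1 followed that of Cirbp by 11.6 h in liver, 13.5 h in muscle, 12.6 h in ARC and 11.7 h in SCN. In Hu, where neither gene was called in any tissue, the lag was 9.82 h in liver, 6.57 h in muscle, 12.8 h in ARC and 13.8 h in SCN. Library by library, with each arm centred on its own mean, the correlation of log2 CPM of Cirbp with Hsph1 was -0.93 over 27 liver libraries, -0.25 over 27 muscle libraries, -0.94 over 22 ARC libraries and -0.72 over 22 SCN libraries. That of Cirbp with Rbm3 was 0.08, 0.69, 0.65 and 0.44. Genes of 1 library share its scaling and its time point, and these values are descriptions.

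**Figure D5:**
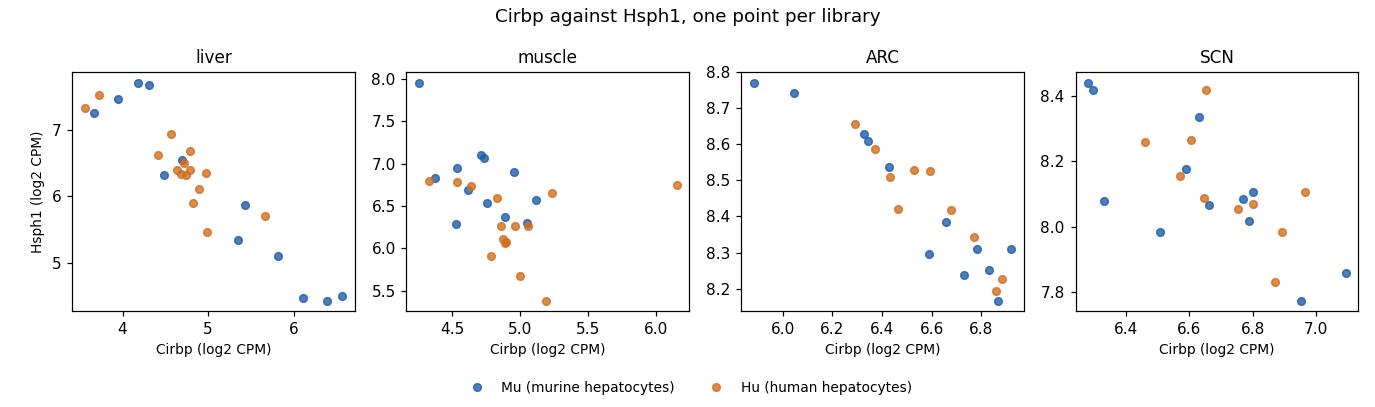
Log2 CPM of Hsph1 against log2 CPM of Cirbp, with 1 point per library in each tissue, blue for Mu and orange for Hu. Libraries with more Cirbp have less Hsph1 in liver, ARC and SCN, and in liver the Mu points span a wider range than the Hu points.

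In Mu, the median level of Cirbp was 100.2 CPM in SCN, 98.5 in ARC, 33.3 in liver and 26.4 in muscle. Neighbours in this order overlapped in range, but ARC and SCN libraries were all above all muscle libraries. Hsph1 followed the order ARC (326 CPM), SCN (271), muscle (108) and liver (69.2), with an overlap between ARC and SCN, between SCN and muscle and between muscle and liver. Hsp90aa1 was at 1294 to 1781 and 1015 to 1403 CPM in ARC and SCN, apart from liver (84.2 to 699) and muscle (36.4 to 402). Dnajb1 was lowest in muscle (4.99 to 18.7 CPM), apart from the other tissues, where liver (19.2 to 56.1) overlapped ARC (53.02 to 90.4) and SCN (49.8 to 85.9). Hspb1 was highest in muscle, with 84.6 to 371 CPM apart from all other tissues, and 6.99 to 54.97 in liver overlapped 3.47 to 10.2 and 1.95 to 7.95 in SCN and ARC. Rbm3, with medians from 41.1 CPM in liver to 92.5 CPM in SCN, Hspa1a and Hspa1b overlapped between all tissues. Hspa8 was at or above 944 CPM in every Mu library of ARC and SCN and spanned 218 to 1510.0 CPM in liver and 449 to 1173 CPM in muscle. Each tissue was scaled on its own, and liver comes from a separate table, so no test was made between tissues.

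Between genes, levels were compared per kilobase of exon. In Mu ARC the median level per kilobase was 385 CPM for Hsp90aa1, 284 for Hspa8, 44.8 for Hsph1, 37.8 for Cirbp, 21.8 for Dnajb1, 16.4 for Rbm3, 4.22 for Hspb1, 2.59 for Hspa1b and 1.47 for Hspa1a. In this order, neighbours overlapped in range except Hspa8 with Hsph1 and Rbm3 with Hspb1. In Mu liver Hspa8 (90.1 CPM per kilobase) and Hsp90aa1 (74.7) led, and in Mu muscle Hspb1 (144) and Hspa8 (133), in both cases with overlapping ranges.

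The genes whose levels varied most like those of Hsph1 include several chaperones and co-chaperones. Over 27 libraries the highest correlations of log2 CPM, each arm centred, were in liver Chordc1 (r = 0.96), Ints2 (0.93) and Palld (0.92), and in muscle Ahsa2 (0.88), St13 (0.85) and Hspd1 (0.84). Over 22 libraries they were in ARC Stip1 (0.91), Hspa4 (0.90) and Calr (0.89), and in SCN Hspa5 (0.89), Rbm4b (0.88) and Hsp90b1 (0.88). For Cirbp they were Inpp5k (0.92), Ccdc9 (0.92) and Acd (0.91) in liver, Sart1 (0.85), Washc1 (0.85) and Hgs (0.84) in muscle, Parn (0.93), Tubgcp2 (0.88) and Tk2 (0.88) in ARC, and Cdk5rap3 (0.90), Sugp1 (0.87) and Usp36 (0.85) in SCN. They were picked as the highest among 8420 to 11078 genes per tissue, and the values carry no test.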

How the data were processed

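The libraries were RNA-seq libraries made with a strand-keeping kit, per the labels' protocols. Raw gene counts were deposited by the authors as 2 tables, one for liver with human and mouse genes in separate rows and one for muscle, ARC and SCN. STAR and the builds GRCm38/mm10, GRCh38/hg38 and hg19 are named, without roles, per the submitters' processing notes. The counter, the annotation, the use of strand and the way reads were assigned to a species are not given in the sources used here.

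Samples were grouped by arm, tissue and ZT from their titles. The 2 Hu ZT 22 columns of ARC and SCN carry no number of their own that matches the labels, and entered as unnumbered replicates. Mouse rows of each tissue were fitted with edgeR 4.0.16 (R 4.3.3): TMM scaling, filterByExpr by arm, and the quasi-likelihood test with a 24 h cosine and sine per arm, both arms in one fit. CPM are mouse counts scaled to a common total after TMM normalization, and log2 CPM used a prior count of 2. Phase SEs are jackknife errors over libraries. The human share was set against levels with 100000 permutation draws, two-sided. DESeq2 1.42.0 and limma 3.58.1 served as alternatives, beside no filter, other scalings, ZT as a factor, a replicate block, and each of 98 libraries left out. The scripts were tested on simulated counts.

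The members and gene lists were chosen with earlier results of these data known. Named beside the members are up to 3 list genes per tissue with the smallest p for a common rhythm and for a level, and the 3 genes most correlated with Cirbp and with Hsph1 among those above a mean log2 CPM of 3. A result of 2 such list genes is not reported here.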

Additional observations from a re-analysis of the deposited data

Results flagged for a closer look

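The rhythm of 2 of the 9 genes in liver differed between the arms by the interaction test of edgeR's quasi-likelihood fit: Cirbp with an adjusted p of 0.0422 and Hsp90aa1 with an adjusted p of 0.0498. By the same test 1.28% of the 14977 genes were called, and leaving out 1 library gave 0 to 4 members. Cirbp was called in 10 of these 27 fits and Hsp90aa1 in 9. For Cirbp, the fitted amplitude was 1.30 in Mu and 0.26 in Hu, and for Hsp90aa1 it was 1.17 and 0.46. In Mu the light-phase and dark-phase libraries did not overlap for either gene, and in Hu they overlapped for both. Neither was called with library sizes over human and mouse rows (adjusted p = 0.187 and 0.166), with ZT as a factor (0.222 and 0.365) or with a replicate block (0.0506 and 0.0515). The mouse RNA of Hu livers also held fewer hepatocyte transcripts, and the part of this in the difference was not tested.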

How the results depend on the processing

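Counts of called members are those of edgeR's quasi-likelihood fit unless another tool is named, and the cause of a changed count was not tested. In liver, DESeq2 called 1 member for a rhythm in Hu and 4 for a different rhythm, and limma with array weights 1 and 5. Of all 14977 genes, DESeq2 called 518 and 1132 for these tests, and limma 1736 and 5228. Without a filter on low counts 1 had a different rhythm, beside 107 of 19689 genes. With ZT as a factor, which gives no level test, 0 had, and 5 were called in common, beside 11 and 351 of 14977 genes. With library sizes over human and mouse rows, 3 were called in Mu, 3 in Hu, 4 in common, 0 for a different rhythm and 7 for a level. Of the 14732 genes tested under this scaling, 85, 8605, 1139, 11 and 11472 were called for these. Rbm3 turned to -0.41 (adjusted p = 0.0534), and 7 members were related to the human share. This scaling puts the human counts into every mouse level, so such a relation is partly built in. That count therefore does not bear on the relation described above. In muscle, DESeq2 called 4 in Mu and 3 in Hu, limma 7 in Mu and 3 for a level (Hspa1a -0.84 and Hspa1b -0.81, adjusted p = 0.184 and 0.181), and ZT as a factor 2 in Hu and 2 in common. Of 14197 genes, DESeq2 called 1464 and 2006 for these tests, limma 3483 and 4928, and ZT as a factor 440 and 518. Without the 2 muscle libraries that correlated least with their arm, an alternative chosen after seeing the data, 3 were called in Mu, beside 1527 of 14102 genes. The level of Hspa8 then missed the threshold (-0.27, adjusted p = 0.0522). In ARC, limma called 7 and ZT as a factor 2 in Mu, and DESeq2 2 in Hu, beside 783, 29 and 87 of 15079 genes. In SCN, limma called 7 in Mu and 5 in common, and ZT as a factor 1 and 0. Of 15006 genes, limma called 2290 and 2003, and ZT as a factor 134 and 27.

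Leaving out 1 library gave, in liver, 0 to 1 members with a rhythm in Hu, 0 to 4 with a different rhythm and 0 to 2 related to the human share. In muscle it gave 0 to 4 in Mu, 0 to 3 in Hu, 1 to 7 in common and 2 to 6 for a level. In ARC it gave 0 to 1 in Hu, and in SCN 0 to 2 in Mu. The labels do not tie equal replicate numbers to an animal or day. Deviations of same-numbered libraries of the 2 arms correlated by 0.0129 to 0.313 over 12 pairs in liver and -0.145 to 0.462 over 12 in muscle. In ARC it was -0.159 to 0.350 over 8 pairs, and in SCN -0.275 to 0.397 over 8. Where both arms had 2 libraries at a ZT, the 2 pairs give the same value by construction. These values therefore cannot show whether equal numbers mark the same animal or day. With a replicate block, 0 members had a different rhythm in liver and 0 a rhythm in Mu SCN, and no other count of called members moved by over 1.5 times. Hu livers with few mouse counts limit the precision of low members such as Hspa1a.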
